A study of Caenorhabditis briggsae with 16 samples.

Results

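Among the mature miRNA arms of *C. briggsae*, 35 were classed here as level between the early and the late part of a larval time course. They were chosen by measured values, in 3 steps. First, arms of Let-7 and Bantam, arms with a provisional name, arms with 4-digit numbers, second versions of an arm (marked -v2) and arms of Mir-1, Mir-2, Mir-9, Mir-10, Mir-29, Mir-36, Mir-54, Mir-71, Mir-77, Mir-85, Mir-92, Mir-96, Mir-124, Mir-133, Mir-190, Mir-193, Mir-230, Mir-246, Mir-255, Mir-279, Mir-305, Mir-784 and Mir-788 were left out, which kept 104 of the 372 arms in the count table. Second, 73 of these had a mean count of 100 or more. Last, after scaling to the library total, the means of 18-21 h and of 30-33 h differed by less than 1.5-fold for 35 of the 73, while 16 were at least 1.5-fold higher late and 22 at least 1.5-fold lower. The 35 arms came from 28 hairpins of 19 families. Because the ratio of late to early chose them, it is given as a description only, and the question asked of the data is which of these arms stayed flat in between and which changed in mid-course.

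A miRNA hairpin is cut into a short duplex with a 5p and a 3p arm. One arm, the guide strand, is kept by an Argonaute protein and directs it to matching sites in target mRNAs, while the other, the passenger strand or miR*, is usually lost quickly. The level of a guide strand therefore reflects both how much hairpin is made and how long the loaded strand lasts. A constant share of all miRNA means that an arm changed in parallel with the total, not that its amount stayed the same. In the names used here (without the prefix Cbr-) an asterisk marks the arm annotated as passenger strand, and P or o with a number or letter marks a paralogous hairpin.

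The animals were wild type (strain AF16), were given no treatment, and were grown at 25°C on plates of 2000 synchronized L1 larvae. Small RNAs of whole, pooled animals were sequenced at each hour from 18 to 33 h after plating, with 1 library per hour and no replicates. Fewer cells that hold an miRNA and less of it per cell cannot be told apart in such samples. The smallest library (32 h) held 9588599 counts and the largest (19 h) 15866144, around a median of 12305010. Values below are normalized counts, that is, counts taken relative to the total of their library and brought to the mean library size, so each is a share of all counted miRNA and not an amount per animal. Every one of the 35 arms passed the filter on low counts (at least 10 counts in at least 8 libraries, 311 arms in all), and the lowest count of any of them in any library was 91.

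Together the 35 arms took 7.56% of all counts, and between 6.98% (21 h) and 8.19% (25 h) of a single library. Their late to early ratio ran from 0.671 to 1.47 with a median of 0.933, and 14 were higher late and 21 lower. This split turned with the scaling, to 18 higher and 17 lower with TMM factors and to 22 higher and 13 lower with the median of ratios. Nearest inside the limit were Mir-64-o4_3p, which went from a mean of 17889 early to 26342 late, and Mir-73-P3a_3p, from 14602 to 20993. On the lower side these were Mir-277-P6b_3p, from 1246 to 836, and Mir-31_3p*, from 3251 to 2216. Just outside were Mir-238_5p* (678 to 1039), Mir-34_5p* (7660 to 12694), Mir-277-P6a_5p* (0.648 of an early mean of 298) and Mir-62_3p (2045 to 1310). Level thus covers arms that drifted by almost the limit and arms that hardly moved.

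**Figure D1:**
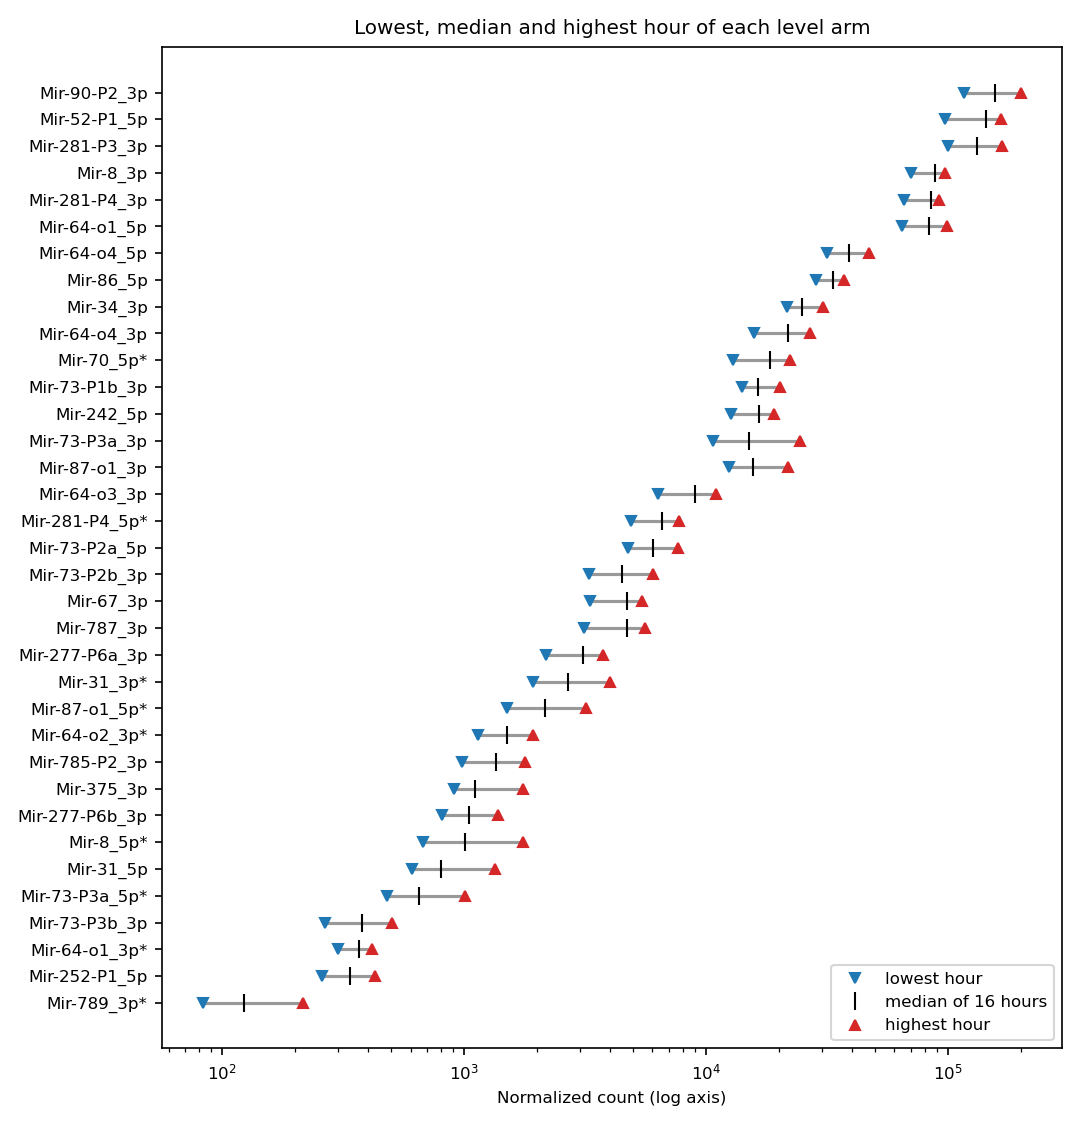
Lowest (blue), median (black) and highest (red) hourly normalized count of each of the 35 level arms on a log axis, from 1 library per hour at 16 hours. The abundance of the arms spans Mir-789_3p* with a median of 123 to Mir-90-P2_3p with 155789, while the distance from lowest to highest hour lies between 1.30-fold and 2.60-fold.

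With library totals, no arm left its level in mid-course by fold. An arm counted as flat when its means at 22-25 h and at 26-29 h were each less than 1.5-fold from the mean of the 8 end hours, and 35 of 35 were. With TMM or median-of-ratios scaling 33 were, without Mir-73-P3a_5p* and Mir-789_3p*, and Mir-789_3p* also passed the limit when the library of 18, 19, 20, 22, 25 or 32 h was left out. The most distant window means were 0.675 of the end mean (Mir-789_3p*, 22-25 h) and 1.36 times it (Mir-8_5p*, 22-25 h). Among the other 209 arms with a mean count of 100 or more, 67.0% met the same definition. Arms outside the 1.5-fold limit at the ends also often met it, with 14 of the 16 that were higher late and 21 of the 22 that were lower. At a narrower limit (0.8 of the end mean or the inverse of that), 27 of the 35 were flat, and the 8 that were not were Mir-73-P3a_5p*, Mir-73-P3a_3p, Mir-8_5p*, Mir-31_3p*, Mir-789_3p*, Mir-73-P2b_3p, Mir-73-P2a_5p and Mir-787_3p.

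Single hours varied more than window means. The highest hour was under 2-fold above the lowest in 28 of the 35 arms, and the median of this range was 1.70-fold. In the other 209 arms 23.0% stayed under 2-fold, with a median of 3.19-fold, but a limit on late over early also limits this range. Among the 96 arms of all families that were level by the same ratio, the 35 included, 66.7% stayed under 2-fold with a median of 1.79-fold and 93.8% were flat. The 7 arms at 2-fold or more were Mir-8_5p*, Mir-789_3p*, Mir-73-P3a_3p, Mir-31_5p, Mir-87-o1_5p*, Mir-73-P3a_5p* and Mir-31_3p*. Of the 9 arms with an asterisk 4 stayed under 2-fold, and of the 26 without one 24 did. Over all arms with a mean count of 100 or more, the 35 included, 15.8% with an asterisk and 38.1% without one did. The difference between strands was thus not particular to the level arms. Among the 35, the range also went with abundance. Of the 15 arms with a mean count of 10000 or more 14 stayed under 2-fold, and of the 20 below it 14 did. The part of abundance in the difference between strands was not tested.

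**Figure D2:**
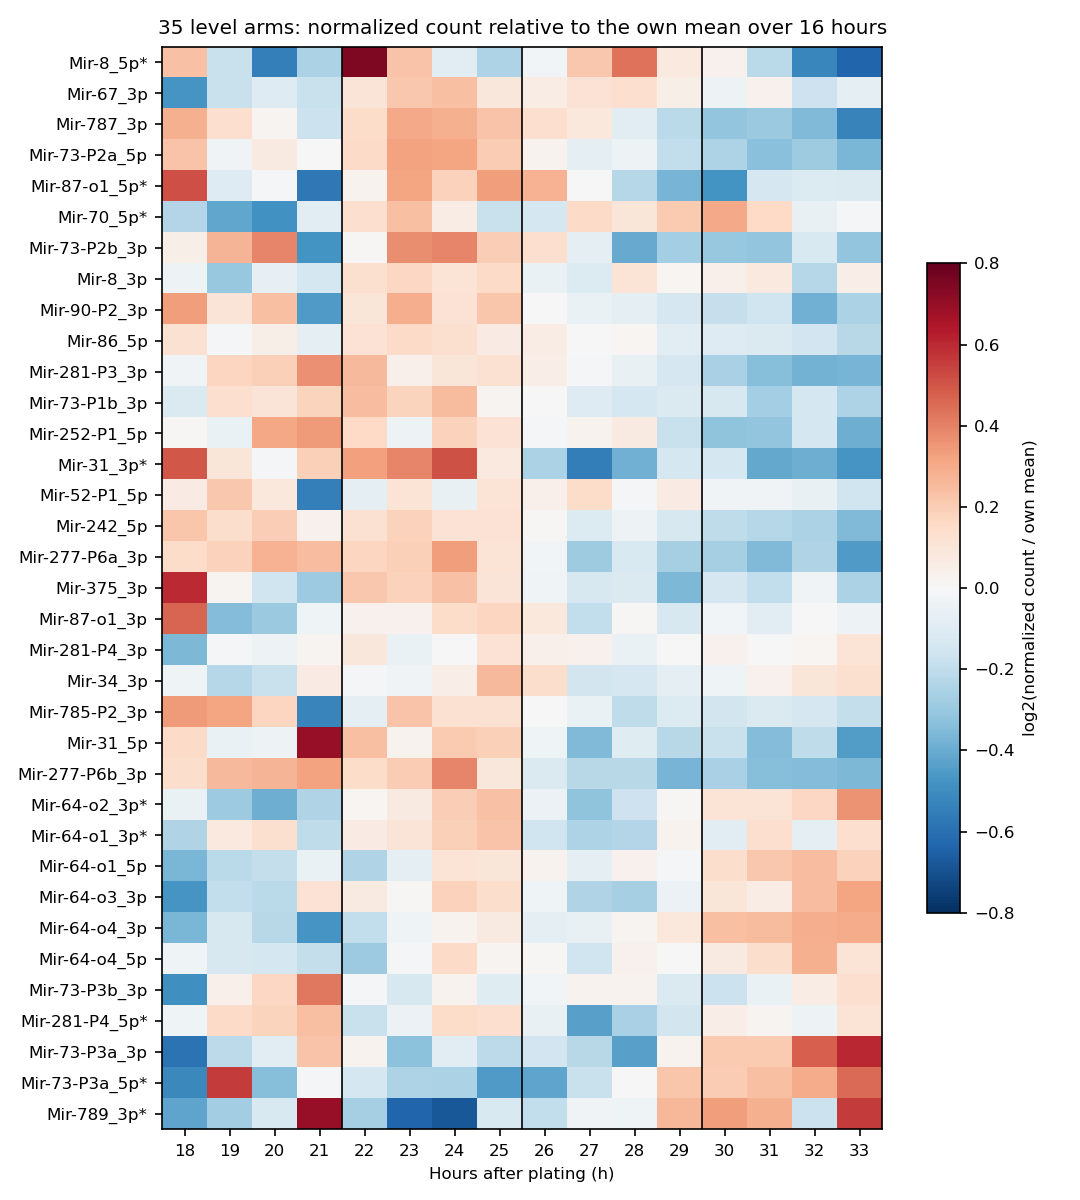
Normalized count of each level arm at each hour relative to its own mean over the 16 hours, as log2 (red above, blue below the mean), sorted by the ratio of middle to end hours, with black lines between the 4 windows of 4 hours. Strong colours are concentrated at 18 and 21 h, where the median distance from the neighbouring hours was 0.23 and 0.18, Mir-8_5p* at the top is highest at 22 h, and Mir-789_3p* at the bottom is highest at 21 h and lowest at 24 h.

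The most abundant level arms were guide strands. Mir-90-P2_3p had its lowest value, 115775, at 21 h, a median of 155789 and its highest value, 200219, at 18 h. Mir-52-P1_5p, whose *C. elegans* relatives of the miR-51 family are needed for embryonic development, varied between 97071 (21 h) and 164852 (19 h), with the median at 143079. For both, the 21 h library held the lowest value, and it lay next to hours with much higher values, with a log2 step of -0.69 and -0.63 from 20 to 21 h. Mir-281-P3_3p behaved otherwise, with its highest value, 166859, at 21 h, a median of 130992 and its lowest value, 99601, at 32 h. It was near the limit at the ends, with 146770 early and 102573 late.

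The flattest arms differed greatly in abundance. Mir-86_5p had the narrowest range of all 35, between 28549 (33 h) and 37055 (23 h), with the median at 33485, a 1.30-fold range (exact 95% interval for counting error 1.28 to 1.32). Mir-8_3p, of the family known as miR-8 in flies and miR-200 in vertebrates, varied between 69931 (19 h) and 96961 (23 h), with the median at 87907, or 1.39-fold. Mir-281-P4_3p had a median of 84857 and lay between 81032 (28 h) and 91230 (25 h) at every hour but 18 h, where its value of 65540 set the range of 1.39-fold. Without the 18 h library the narrowest range of any level arm was 1.13-fold. Mir-34_3p, whose family acts in stress and DNA damage responses in *C. elegans*, varied between 21599 (19 h) and 30289 (25 h), with the median at 24980. The passenger strand Mir-64-o1_3p* was as narrow at a far lower level, between 300 (27 h) and 418 (25 h), with the median at 368, but its counting interval for the 1.39-fold range ran from 1.19 to 1.63.

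Small shifts in mid-course were tested on the log scale, with the mean of the middle windows against the mean of the end windows. The error comes from the hours within windows, which are not replicates. A pass as higher in the middle does not require that each middle window exceeds both end windows. Of all 311 arms, 23.8% passed the test as higher in the middle and 2.25% as lower. Of the 35 level arms 3 (8.57%) passed as higher and 0 as lower, and 10 had an unadjusted p under 0.05 in either direction. The 3 were Mir-67_3p, Mir-787_3p and Mir-73-P2a_5p. All arms together were also higher in the middle, with a median log2 difference of 0.14 against 0.05 for the level arms.

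Mir-67_3p varied between 3300 (18 h) and 5417 (24 h), with the median at 4715. It was at 4737 or more at every hour from 22 to 29 h and at 4693 or less at all 8 end hours, so the middle and end hours did not overlap. The log2 difference was 0.27 (SE 0.063, adjusted p = 0.00486). Mir-787_3p varied between 3127 (33 h) and 5579 (23 h), with the median at 4704, and Mir-73-P2a_5p between 4747 (33 h) and 7649 (23 h), with the median at 6057. Their differences were 0.26 (SE 0.077, adjusted p = 0.0218) and 0.21 (SE 0.058, adjusted p = 0.0151). Both were also lower late than early, with means of 3499 against 4773 and 4946 against 6429, and at 26-29 h they were already below their early means, at 4485 and 5834. With scaling by TMM or by the median of ratios, which bring the median of all arms to 0.01 and -0.02, none of the 3 passed, while 2 and 5 level arms passed as lower. Nor did any of the 3 pass with 21-30 h as the middle, where Mir-67_3p had an adjusted p of 0.0507, Mir-73-P2a_5p of 0.121 and Mir-787_3p of 0.234.

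Mir-8_5p*, the passenger strand of the flat Mir-8_3p, had the largest mid-course excess without passing the test. It varied between 675 (33 h) and 1753 (22 h), with the median at 1010, and had further high values of 1233 at 18 h and 1412 at 28 h with lows of 715 at 20 h and 882 at 25 h. Its log2 difference was 0.43 (SE 0.157, adjusted p = 0.0551). Mir-87-o1_5p* varied between 1501 (21 h) and 3187 (18 h), with the median at 2150, and Mir-70_5p* between 12913 (20 h) and 22271 (30 h), with the median at 18374. Their differences, 0.18 (SE 0.138) and 0.18 (SE 0.085), had adjusted p of 0.37 and 0.145. The window means of Mir-70_5p* were 14692, 19010, 19193 and 19434, so its positive difference is not a mid-course peak.

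At the other end were arms with a negative difference, none of which passed this test. A negative difference does not require a dip. The window means of Mir-64-o1_5p (72314, 82139, 82838 and 95443) and Mir-64-o4_3p (17889, 21408, 21778 and 26342) rose throughout. Those of Mir-73-P3a_3p were 14602, 14548, 14116 and 20993, so this arm was higher only late. Mir-789_3p*, the least abundant, varied between 83.5 (24 h) and 217 (21 h), with the median at 123, and its log2 difference was -0.35 (SE 0.167, adjusted p = 0.14). Mir-73-P3a_5p* varied between 478 (18 h) and 1008 (19 h), with the median at 649, and otherwise went from 499 at 25 h up to 938 at 33 h. Its guide strand Mir-73-P3a_3p varied between 10651 (18 h) and 24372 (33 h), with the median at 15090, with its middle hours between 11867 and 16410. The differences of both strands were similar, -0.31 (SE 0.141, adjusted p = 0.121) and -0.29 (SE 0.112, adjusted p = 0.0716). Mir-281-P4_5p* varied between 4870 (27 h) and 7751 (21 h), with the median at 6550, and its difference was -0.18 (SE 0.072, adjusted p = 0.0724). Mir-73-P3b_3p (267 to 502, median 378) differed by -0.07 and Mir-64-o4_5p (31698 to 47230, median 38917) by -0.04, and Mir-64-o3_3p, Mir-64-o1_5p and Mir-64-o4_3p by -0.02, -0.01 and -0.01. Without the 18 h library, 8 level arms passed this test, 5 as higher and 3 as lower, the latter being Mir-73-P3a_5p*, Mir-73-P3a_3p and Mir-281-P4_5p*, and without the 29 h library 5 passed. The outcome for these arms also depended on the scaling. With TMM factors Mir-73-P3a_3p and Mir-281-P4_5p* passed as lower. With the median of ratios both did, as did Mir-73-P3a_5p*, Mir-64-o4_5p and Mir-789_3p*.

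**Figure D3:**
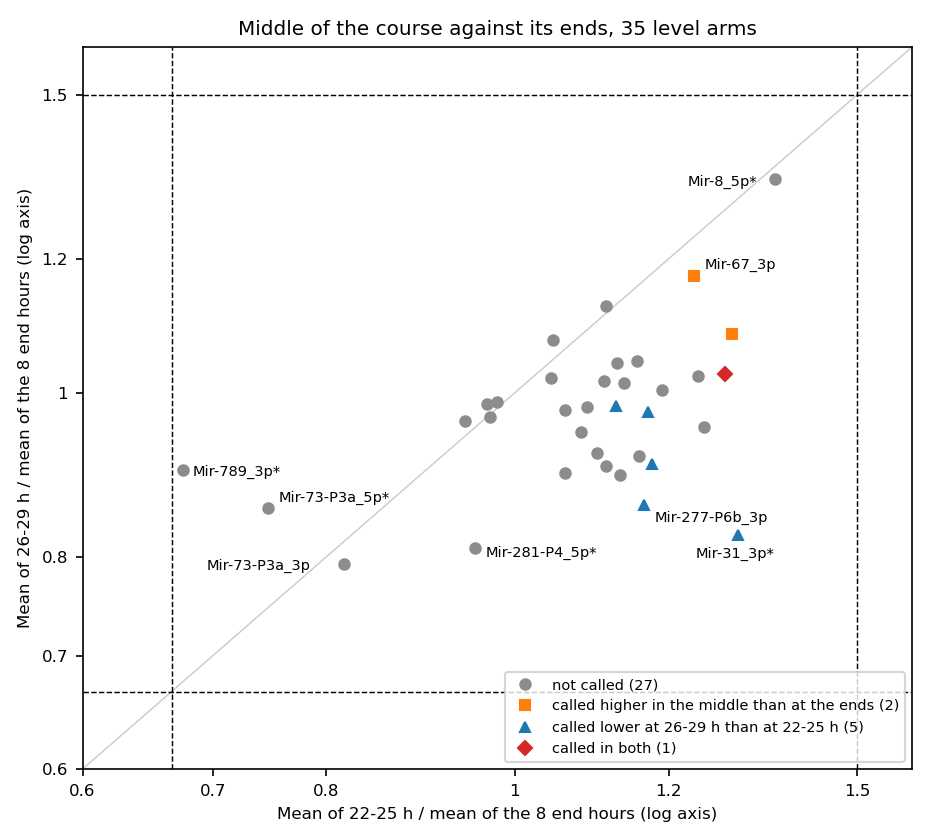
Mean normalized count at 22-25 h (x axis) and at 26-29 h (y axis) of each level arm over its mean at the 8 end hours, on log axes, with dashed lines at the 1.5-fold limits and the diagonal in grey. All 35 points lie inside the limits, 3 passed the test as higher in the middle, 6 as lower at 26-29 h than at 22-25 h, and Mir-73-P2a_5p passed both.

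Within the middle of the course, the calls were all for lower values at 26-29 h. At 26-29 h against 22-25 h, 16.7% of all 311 arms passed as lower and 9.97% as higher. Of the level arms 6 (17.1%) passed as lower, a share near that of all arms, and 0 as higher, and 14 had an unadjusted p under 0.05. The median log2 difference was -0.17 for the level arms and -0.18 for all arms. The 6 arms, named because they passed, were Mir-31_3p*, Mir-277-P6b_3p, Mir-277-P6a_3p, Mir-73-P2a_5p, Mir-73-P1b_3p and Mir-242_5p.

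Mir-31_3p* had the largest of these differences. Its values were 3534, 3702, 4018 and 2981 at 22, 23, 24 and 25 h and 2366, 1922, 2165 and 2562 at 26, 27, 28 and 29 h, so the windows did not overlap. The log2 difference was -0.66 (SE 0.135, adjusted p = 0.0039). The other arm of this hairpin, Mir-31_5p, which varied between 610 (33 h) and 1345 (21 h), with the median at 804, had a difference of -0.34 (SE 0.15, adjusted p = 0.098). Although annotated as the passenger strand, Mir-31_3p* was the more abundant arm in all 16 libraries, by 2.39-fold to 4.37-fold.

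Both level Mir-277 guide strands, of a family that in flies regulates branched-chain amino acid breakdown, passed as lower. Mir-277-P6b_3p varied between 811 (29 h) and 1375 (24 h), with the median at 1042, and its difference was -0.44 (SE 0.089, adjusted p = 0.0039). Mir-277-P6a_3p varied between 2182 (33 h) and 3757 (24 h), with the median at 3083, and its difference was -0.37 (SE 0.088, adjusted p = 0.00744). From 24 to 27 h Mir-277-P6b_3p went through 1375, 1116, 968 and 898.5, and Mir-277-P6a_3p through 3757, 3224, 2941 and 2450. Their late means were 836 and 2382 against early means of 1246 and 3463, values that also served to choose the arms. The form of the fall was not tested. Mir-73-P2a_5p differed by -0.32 (SE 0.083, adjusted p = 0.0106), Mir-73-P1b_3p (14070 to 20236, median 16429) by -0.26 (SE 0.082, adjusted p = 0.0261) and Mir-242_5p (12721 to 19001, median 16509) by -0.20 (SE 0.068, adjusted p = 0.0416). With the median of ratios, Mir-31_3p* and Mir-277-P6b_3p still passed and the other 4 did not. Without the 21 h library 10 level arms passed.

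**Figure D4:**
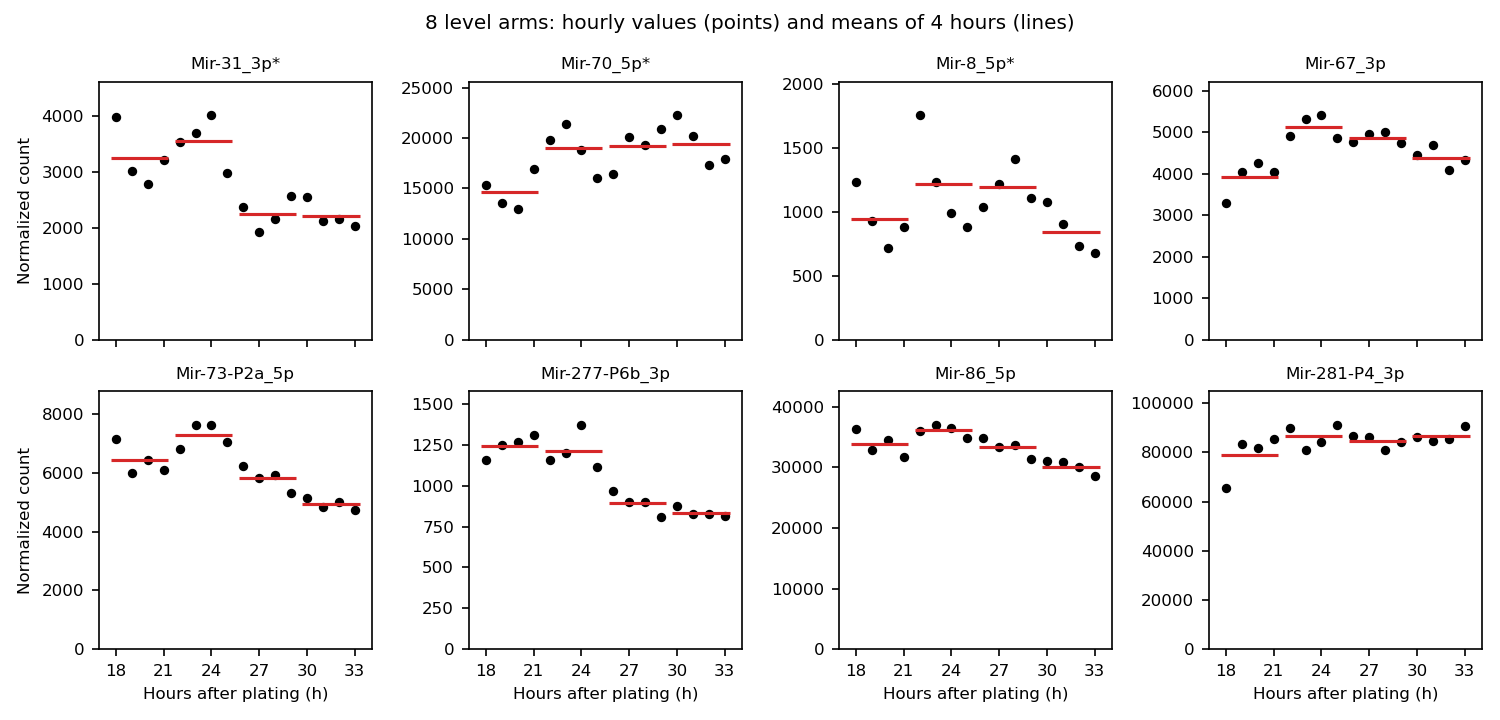
Hourly normalized counts (points) and means of the 4 windows (red lines) of 8 level arms, on linear axes that start at 0. Mir-31_3p* and Mir-277-P6b_3p fall from their highest hour, 24 h, with their largest hourly step from 24 to 25 h. Mir-67_3p is highest in the middle windows, and Mir-8_5p* has high values at 18, 22 and 28 h. Mir-86_5p and Mir-281-P4_3p stay within 1.39-fold.

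Larval development in *C. elegans* is accompanied by gene expression that recurs with each molt, so a rhythm of 7 h on top of a linear trend was tested, the form of model used by the study. Of all arms 7.4% passed, and of the level arms 2 (5.71%), with 7 at an unadjusted p under 0.05. The 2 were Mir-31_3p* and Mir-70_5p*. Mir-31_3p* had a log2 amplitude of 0.28 (SE 0.056, adjusted p = 0.0156), with high values of 3986 at 18 h and 4018 at 24 h. Mir-70_5p* had an amplitude of 0.22 (SE 0.043, adjusted p = 0.0156), with high values of 21369 at 23 h and 22271 at 30 h and low values of 12913 at 20 h and 16006 at 25 h. The 16 hours hold little more than 2 such periods. At a period of 6 h neither passed, with adjusted p of 0.194 for Mir-31_3p* and 0.0634 for Mir-70_5p*. At 8 h Mir-31_3p* passed (adjusted p = 0.0322) and Mir-70_5p* did not (adjusted p = 0.189). Mir-70_5p* lost its call when the library of 22 h or of 23 h was left out (adjusted p = 0.0532 and 0.0556), and Mir-31_3p* when that of 24 h or of 27 h was (adjusted p = 0.0552 and 0.0512).

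The arms of a hairpin are made together, and a level arm did not imply a level partner. Of the 28 hairpins, 7 had both arms among the 35 (Mir-8, Mir-31, Mir-64-o1, Mir-64-o4, Mir-73-P3a, Mir-87-o1 and Mir-281-P4). In the other 21 hairpins the second arm was at least 1.5-fold lower late in 8, at least 1.5-fold higher in 5 and had a mean count under 100 in 8. For comparison, 96 of all 244 arms with a mean count of 100 or more were level by the same ratio. Whether partners of level arms differed from arms in general was not tested. Arms of a hairpin could also lie close together on both sides of the limit. Mir-281-P3_5p* had a late to early ratio of 0.613, beside 0.699 for Mir-281-P3_3p. Since both arms come from the same library, their ratio does not depend on the scaling, but the ratio at a given hour still rests on 1 library.

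Mir-52-P1_5p had means of 140188 early and 135260 late, while its passenger strand Mir-52-P1_3p* went from 116401 to 26733, or 0.230 of the early mean. The ratio of 5p to 3p* counts was lowest, 0.668, at 21 h, had a median of 1.70 and was highest, 5.45, at 32 h. Only at 21 h did the passenger strand exceed the guide strand. That library lay farthest from its neighbouring hours over all arms, with a median distance of 0.25 (log2). Mir-52-P1_3p* had high values of 145286 at 21 h and 117979 at 26 h with 66249 at 23 h between them, and passed as higher in the middle than at the ends by 0.62 (SE 0.152, adjusted p = 0.0079), while the level guide strand differed by 0.08 (SE 0.087, adjusted p = 0.493). Both middle window means of Mir-52-P1_3p*, 82674 and 88300, were below its early mean. The difference between the arms was not tested.

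Mir-86 had the same form. Its guide strand had the narrowest range of the 35, while Mir-86_3p* went from 27333 (21 h) down to 18522 (24 h), back to 27914 (27 h) and down to 11281 (33 h). Mir-86_3p* passed as higher in the middle by 0.47 (SE 0.108, adjusted p = 0.00483), against 0.12 (SE 0.045, adjusted p = 0.066) for Mir-86_5p. The ratio of 5p to 3p* lay between 1.16 at 21 h and 2.57 at 32 h.

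In Mir-70 and Mir-34 the level arm had a partner with an upward course. Mir-70_5p* went from an early mean of 14692 to 19434, and Mir-70_3p, the guide strand, from 18438 to 66428, or 3.60-fold. The passenger strand thus reached 0.921 of the guide count at 19 h and 0.246 at 32 h. Mir-70_3p passed as higher in the middle by 0.40 (SE 0.091, adjusted p = 0.00483). Its middle window means, 44048 and 48090, lay between the early and the late mean, so this pass is not a mid-course peak. For Mir-34 the guide strand was level (23806 to 26339) and the passenger strand Mir-34_5p* 1.66-fold higher late, so the guide count was 3.71 times the passenger count at 18 h and 1.99 times at 30 h.

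In Mir-789 the order of the arms turned. Mir-789_5p went from 13.4 (19 h) and 32.3 (23 h) to 362 (27 h) and back to 139 (33 h), and passed as higher in the middle by 1.65 (SE 0.355, adjusted p = 0.00361) and higher at 26-29 h than at 22-25 h by 1.88 (SE 0.479, adjusted p = 0.0106). Mir-789_3p* stayed between 83.5 and 217 throughout. The ratio of 3p* to 5p was 9.21 at 21 h and 0.339 at 26 h, and each arm was the higher one in 8 of the 16 libraries. Of the second arms that were not level, 19 of 21 could be tested, and 4 passed as higher in the middle, 0 as lower, 1 as higher at 26-29 h, 2 as lower there (Mir-281-P3_5p* and Mir-73-P2a_3p) and 0 as rhythmic. For comparison, 23.8%, 2.25%, 9.97%, 16.7% and 7.4% of all 311 arms passed these tests, so the second arms passed as higher in the middle about as often as arms in general. Calls of the second arms were not examined under the other scalings, with which the level arms called as higher in the middle lost that call.

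**Figure D5:**
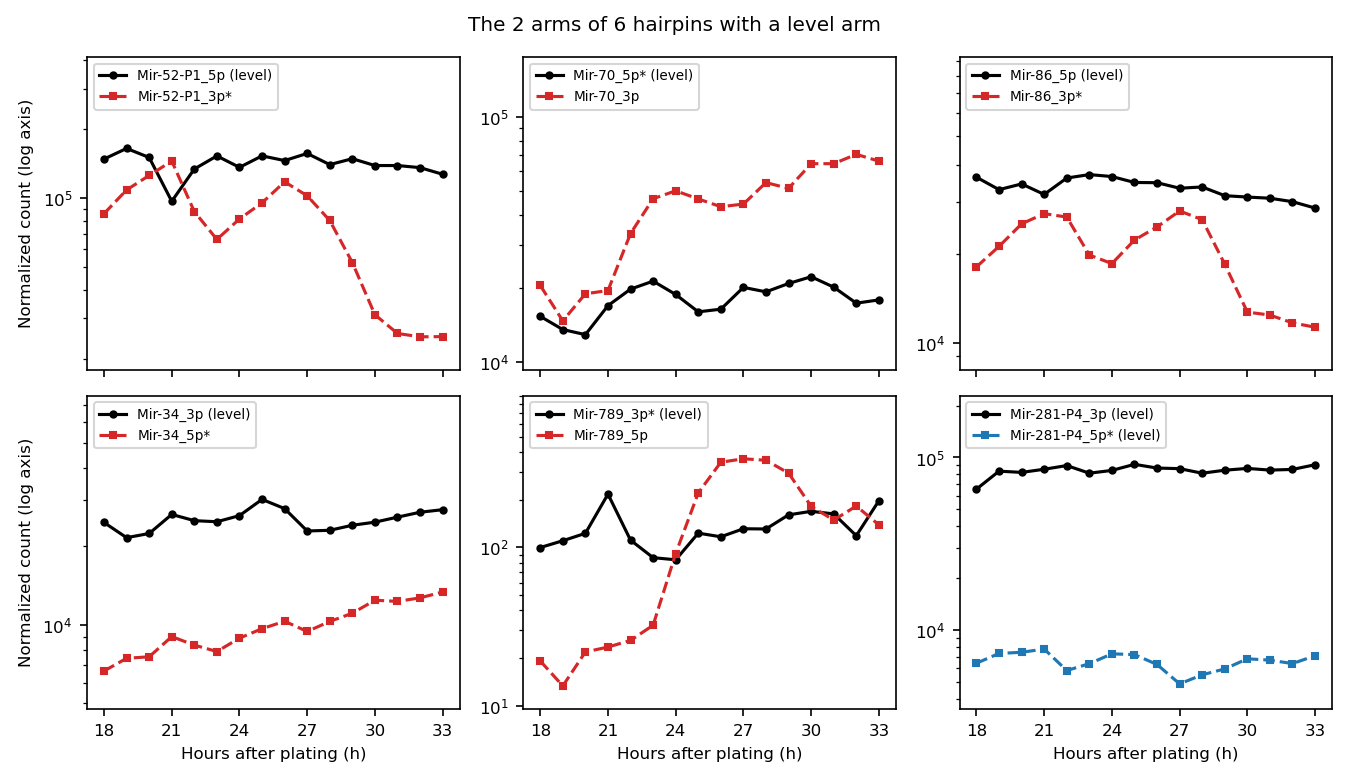
Normalized counts by hour (log axes) of the 2 arms of 6 hairpins, with the level arm in black and the second arm in red, or in blue where it is level as well. Mir-52-P1_3p* and Mir-86_3p* vary and end low beside level guide strands, Mir-70_3p and Mir-34_5p* end high, Mir-789_5p crosses Mir-789_3p*, and both Mir-281-P4 arms stay level.

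Several families held most of their arms level. In Mir-64, 6 of 8 arms were level and the other 2 were at least 1.5-fold higher late, Mir-64-o2_5p (94951 to 164970) and Mir-64-o3_5p (1017 to 2214). All 6 level arms of Mir-64 were higher late than early, from Mir-64-o1_3p* with a ratio of 1.06 to Mir-64-o4_3p with 1.47. Mir-64-o1_5p varied between 64664 (18 h) and 98898 (32 h), with the median at 83527, and Mir-64-o4_3p between 15780 (21 h) and 26798 (33 h), with the median at 21758. Mir-64-o3_3p ranged from 6331 to 10956 with a median of 9009, and Mir-64-o2_3p* from 1139 to 1921 with a median of 1507. The highest hour was 32 h or 33 h for 5 of these 6 arms, which therefore drifted upward within the limit.

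In Mir-281, 3 of 4 arms were level, and Mir-281-P3_5p* was lower late (25276 to 15492). In Mir-73, 6 of 12 arms were level, 3 were at least 1.5-fold lower late and 3 had a mean count under 100. The level Mir-73 arms did not share a course, since both arms of Mir-73-P3a were higher late, Mir-73-P3b_3p had a ratio of 0.950, and Mir-73-P1b_3p, Mir-73-P2a_5p and Mir-73-P2b_3p (3290 to 6003, median 4490) had ratios of 0.827, 0.769 and 0.781. Paralogs of other level arms were outside the limit. Mir-90-P1_3p went from 918068 to 514644 beside Mir-90-P2_3p with 168411 and 133893, Mir-252-P2_5p was 1.91-fold higher late beside Mir-252-P1_5p (258 to 427, median 337, ratio 0.731), and Mir-785-P1_3p was 2.37-fold higher late beside Mir-785-P2_3p (978 to 1784, median 1351, ratio 0.835). No other arm in the table had nearly the same counts as a level arm, within 0.1 on the log2 scale in every library, although reads with several matches were kept. Arms with a similar course at another level were not sought.

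The remaining level arms were Mir-87-o1_3p, which varied between 12425 (19 h) and 21831 (18 h), with the median at 15673, and Mir-375_3p, of a family that controls insulin secretion in mammals, which varied between 906 (29 h) and 1756 (18 h), with the median at 1105. Both owed their range to the 18 h library, with log2 steps of -0.81 and -0.57 to 19 h. Lowest values were frequent in the libraries of 18, 21 and 33 h, with 7, 6 and 8 of the 35 arms. Peaks were less confined to these hours. The 18 h and 21 h libraries each held the peak of 6 arms, but so did the 24 h library. The 33 h library held 4 peaks, as did that of 23 h. The median distance of a level arm from its neighbouring hours was 0.23 (log2) at 18 h and 0.18 at 21 h, and at most 0.12 at every other hour. Over all arms this distance was 0.21 for the 18 h library and 0.25 for that of 21 h. The 18 h library has a neighbouring hour on a single side only. Without the 18 h and 21 h libraries, 30 of the 35 arms stayed under 2-fold, with a median range of 1.53-fold, beside 32.1% of the other 209 arms.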

How the data were processed

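Small RNA libraries of whole *C. briggsae* AF16 animals were made from total RNA, 1 per hour. The authors mapped reads with QuasR and Bowtie (at most 100 hits each) and counted sense reads starting within 3 bp of an annotated 5′ end. The deposited counts are not normalized. The deposited log2 values are counts scaled to the library total, with a pseudocount of 8, and were recomputed for 5952 values (largest difference 0.0005). The paper names assembly WS225 with MirGeneDB arms and the submitters' processing notes name ce10. Tool versions: not given in the sources used here. No genome was used here, so no sequences or coordinates are given.

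Counts were tested with edgeR 4.0.16 (glmQLFit, glmQLFTest, R 4.3.3) on the 311 arms that reached 10 counts in 8 or more libraries, with library totals as sizes and Benjamini-Hochberg adjustment at 0.05. The model had 4 windows of 4 hours, or a linear term with cosine and sine at 7 h. Residual spread is that between hours, which are not replicates and not independent, so p-values measure only that spread. Exact 95% intervals cover only counting error. They take the highest and the lowest hour as given and do not allow for the choice of these hours among the 16. The tests were checked on simulated data. DESeq2 1.42.0, limma 3.58.1, other scalings, filters, periods, fold limits and leaving out each library were alternatives.

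Arms were named with hourly values as the 5 most abundant, the 5 with the narrowest range, the 6 largest and 6 smallest ratios of middle to ends, the rhythmic arms and those next to the limit. The members and lists were chosen with earlier results of these data known. The summaries without the 18 h and 21 h libraries, the arms named because they passed a test, the ratios of arms and the paralogs were chosen after seeing the data.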

Additional observations from a re-analysis of the deposited data

How the results depend on the processing

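The number of level arms was 35 with library totals, 18 at a narrower limit (ratios from 0.8 to its inverse) and 58 at 2-fold, and 32 to 37 with a library left out. TMM and median-of-ratios scaling each gave 42, sharing 33 and 29 of the 35. These scalings moved the median log2 late to early ratio of all tested arms from -0.31 to -0.15 and -0.07. All 35 were flat, and 34 or 35 with a library left out. The number changed in mid-course was 0, and it was 2 with TMM and 2 with the median of ratios (Mir-73-P3a_5p* and Mir-789_3p* in both), 8 at the narrower limit, and 0 to 1 with a library left out. The number with a range under 2-fold was 28, and 29 to 30 without the 18 h or the 21 h library.

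For middle against ends 3 level arms passed, against 5 with the median of ratios, 6 with DESeq2, 1 with 21-30 h as the middle (Mir-70_5p*, none of the 3), and 3 to 8 with a library left out. For 26-29 h against 22-25 h 6 passed, against 2 with the median of ratios and 4 to 10 with a library left out. For the rhythm 2 passed, against 5 with DESeq2, 0 at a period of 6 h, and 1 to 3 with a library left out. Over 2450 values of single arms, 2367 kept their side of the threshold, 41 lost a call, 42 gained one and 0 called values changed sign. Of 1575 differences between windows 106, none of them called, changed sign, for middle against ends in 17 of 35 arms with TMM and 20 with the median of ratios. The cause of these changes was not tested. With 1 library per hour, an hourly value cannot be told apart from its library, and counting error is largest for Mir-789_3p*, whose 2.59-fold range has an interval of 2.03 to 3.34.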
